A study of Mus musculus with 4 samples.

Results

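The genes described here encode the cytosolic translation initiation factors (eIF) and elongation factors (eEF), together with the kinases and binding proteins that carry an eIF or eEF name. They were taken from the mRNA table by symbol, as every gene whose name starts with Eif or Eef followed by a digit, which gave 63 genes of 16470 in the table, each with 1 transcript. RNA had been sequenced from mouse embryonic stem cells of the strain C57BL/6 at passages 25 to 30, kept without feeder cells on gelatin in medium with LIF and serum. The cells had received either mutant Dis3l2 with a FLAG tag or a mock transfection, and in either case the input RNA and the RNA recovered on anti-FLAG M2 gel (immunoprecipitate, IP) gave 1 library each, which makes 4 groups of 1 library. Both inputs were depleted of ribosomal RNA with RiboMinus, and no such step is named for the IPs. Dis3l2 is an exoribonuclease that degrades RNA from its uridylated 3′ end. The labels do not name its mutation, how many cells took up the construct or how strongly it was expressed, and they mention no loss of the cells' own Dis3l2. The mock IP measures what the gel recovers without a tagged protein.

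Translation starts when eIF2, carrying GTP and the initiator tRNA, joins the small ribosomal subunit together with eIF1, eIF1A, eIF3 and eIF5. The eIF4 factors bind the cap of the mRNA and unwind its leader: eIF4E holds the cap, eIF4G is the scaffold and eIF4A the helicase, while 4E-binding proteins keep eIF4E from eIF4G. eIF2B recharges eIF2 with GTP, and the eIF2 kinases block that step under stress. Once the large subunit has joined with the help of eIF5B, eEF1A brings aminoacyl-tRNAs and eEF2 moves the ribosome along. Several of these mRNAs, those of the elongation factors first, are among the most abundant of dividing cells, and many of them are translated in step with the ribosomal protein mRNAs.

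The translation factor genes held 1106 of 307324 reads of the mRNA table in the mutant input, 1330 of 291175 in the mock input, 14222 of 2275647 in the mutant IP and 11226 of 1860030 in the mock IP. Their share was 0.360% of the mutant input (exact Clopper-Pearson 95% interval 0.339 to 0.382), 0.457% of the mock input (0.433 to 0.482), 0.625% of the mutant IP (0.615 to 0.635) and 0.604% of the mock IP (0.592 to 0.615). One gene, Lars2, held from 33.3% to 58.6% of the reads of a library, and without it the shares were 0.540%, 0.701%, 1.30% and 1.46%. The IPs thus stood in the opposite order once Lars2 was left out. A translation factor gene had a median of 7 reads in mutant input, 6 in mock input, 71 in mutant IP and 52 in mock IP, and 37 and 42 of the 63 genes had under 10 reads in the mutant and mock input. Comparisons between the IPs thus rest on more reads than any comparison with an input. Intervals here and below cover counting error only, since copies made by PCR are not independent molecules, and with 1 library per group no difference has a replicate check and no test was possible.

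**Figure D1:**
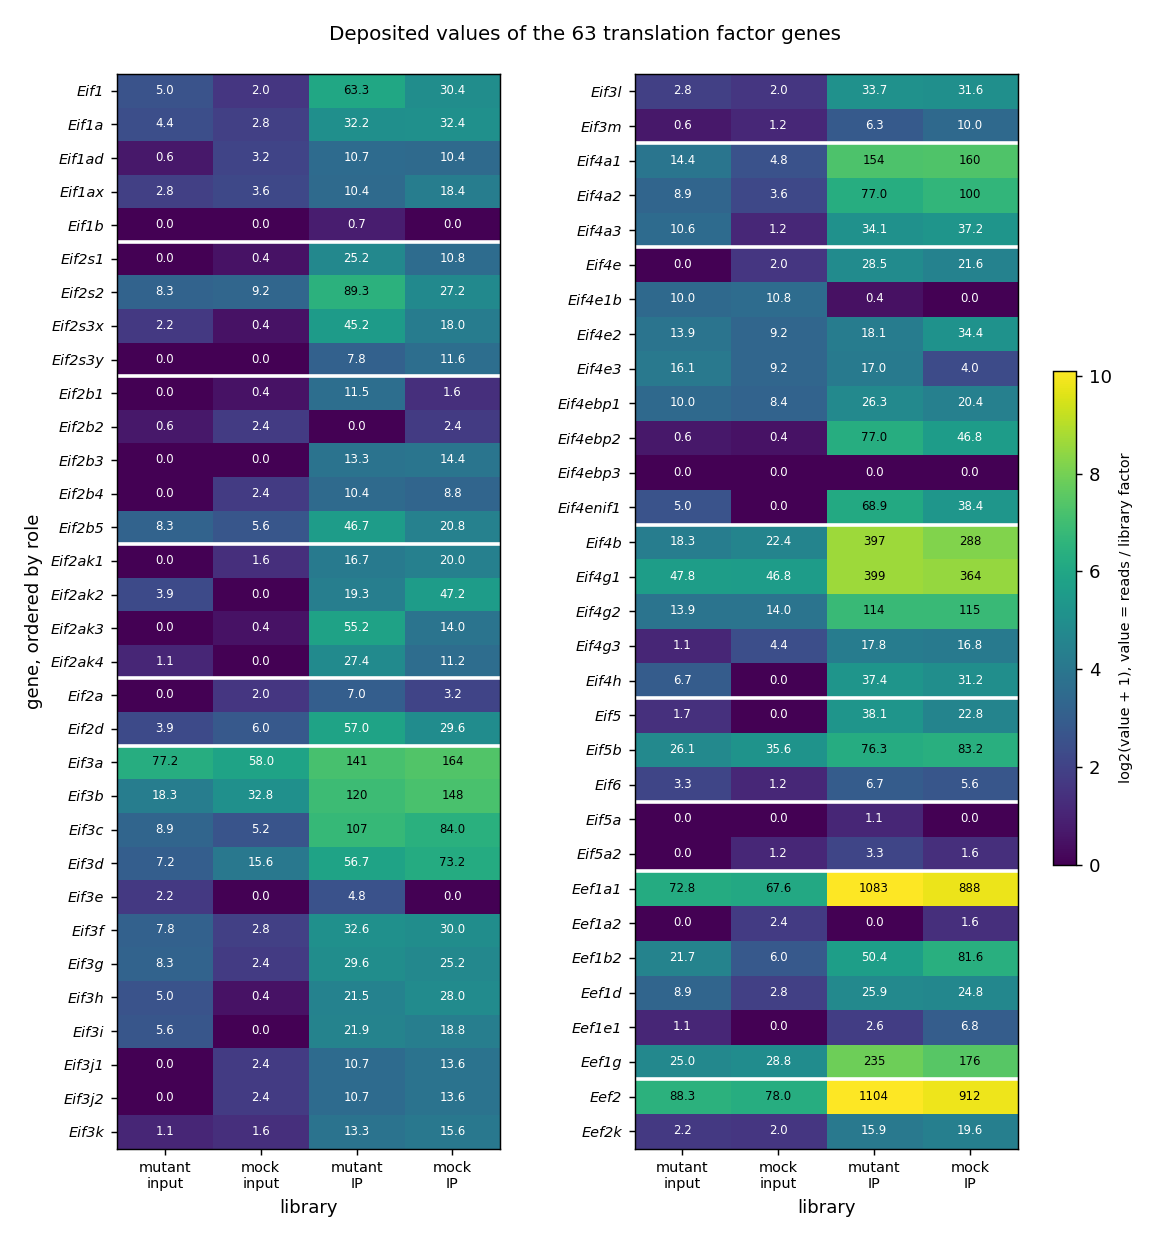
Deposited values (reads divided by 1 factor per library) of the 63 translation factor genes in the 4 libraries, with the value written in each cell and the colour giving log2(value + 1); white lines separate the roles. Eef2 and Eef1a1 hold the highest values in both IPs, 1104 and 1083 in the mutant IP and 912 and 888 in the mock IP, and most genes are higher in the IPs than in the inputs.

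Eef2, the translocase, had the most reads: its deposited values were 88.3 (mutant) and 78 (mock) in the inputs and 1104 (mutant) and 912 (mock) in the IPs. Pairs of values below follow this order, mutant before mock. By the mean over the 4 libraries Eef1a1, the tRNA carrier of elongation, followed, with 72.8 and 67.6 in the inputs and 1083 and 888 in the IPs. Both differed little between the conditions and were 11.7 to 14.9 times higher in an IP than in its input, and together they made up 26.2% and 27.4% of the reads of these genes in the mutant and mock inputs and 41.5% and 40.1% in the IPs. Next came Eif4g1 (the cap-binding scaffold), Eif4b (a helper of the eIF4A helicase), Eef1g (a structural subunit of the eEF1 exchange complex), Eif3a (the largest core subunit of eIF3), Eif4a1 and Eif3b. These values are not divided by transcript length, so that they order the genes by reads and not by the number of mRNA molecules. Read counts of genes with close copies are uncertain, because no source used here gives the treatment of reads with several alignments. Eif3j1 and Eif3j2, nearly identical genes for the loosely bound eIF3j subunit, held the same value in each of the 4 libraries and count as 1 observation.

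As a check of the cells, all 10 stem cell markers (such as Pou5f1, Sox2 and Zfp42) had reads in both IPs, with 3632 and 2424 reads in all in the mutant and mock IP and 132 and 176 in the inputs. Of the fibroblast markers 3 of 6 were found in the table, with 16 and 10 reads in the inputs and 99 and 27 in the IPs; Col1a1 held 73 and 23 of the IP reads, Thy1 26 and 3, and Col1a2 0 and 1. The 3 endoderm, 4 mesoderm and 5 ectoderm markers found had 20 and 26, 30 and 20, and 98 and 87 reads in the IPs. These sums hide markers that went opposite ways. Gata4 had 20 and 0 IP reads and Afp 0 and 25, Kdr 14 and 0 and T 0 and 11, and Pax6 13 and 0 and Sox1 0 and 15. Gata6 had 0 and 1, Eomes 16 and 9, Nes 50 and 54 and Tubb3 35 and 18. Mixl1 and Fgf5 were at 0 in every library. In such bulk samples, fewer cells of a type and less RNA per cell cannot be told apart. For the targeted gene, Dis3l2, the IPs held 127 and 21 reads and the inputs 7 and 3, so that the IPs differed 5.6-fold (3.51 to 9.36). Its reads may come from the cells or from the construct, which was not tested.

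Mutant IP over mock IP addresses which RNAs came down with the tagged protein. Most translation factor mRNAs differed less than 2-fold between the IPs, and with the scaling as deposited, the genes at least 2-fold apart on 20 or more reads in each IP were Eif1, Eif2s1, Eif2s2, Eif2s3x, Eif2b5, Eif2ak3 and Eif2ak4, all higher in the mutant IP, and Eif2ak2, which was lower. The set depends on the scaling. Centring gave the libraries the same median over the features with a value of at least 5 in each library of the ratio. After centring, Eif2s2 and Eif2ak3 were the ones at least 2-fold higher, at 1.32 and 1.55 on the log2 scale. Eif2ak2 (-1.61), Eif4e2 (-1.24), Eif1ax (-1.11) and Eef1b2 (-1.05) were at least 2-fold lower. Of 60 genes with a value of at least 1 in either IP, 2 were at least 4-fold higher in the mutant IP, against 10.1% of all 14273 features, and 0 were lower by as much, against 5.74%. This call uses log2 ratios with a pseudocount of 1, which understates the difference of low genes. At 2-fold, 11 of 60 were higher (28.8% of all features) and 4 lower (15%). The median log2 ratio of the 60 genes was 0.12, and that of all features 0.38. The genes with too few reads in both IPs were Eif1b, Eif4e1b and Eif4ebp3.

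To limit the scatter of low counts, the same was counted among genes with at least 20 reads in each IP, which 49 translation factor genes had. Here 7 of 49 were at least 2-fold higher in the mutant IP (12.5% of 6524 features) and 1 was lower (2.5%), and 0 passed 4-fold in either direction (0.521% and 0.046%). The median was 0.09 against 0.31 for all features with that many reads. These counts depend on how the libraries are scaled: after centring, 2 of the 49 passed 2-fold upwards and 4 downwards (4.35% and 6.44% of features with as many reads), and with equal totals 4 and 2 (7.79% and 4.17%). The median over all features was 0.38 as deposited and 0.04 after centring. The 95% counting interval of the ratio, as deposited, lay above 1 for 17 of the 49 genes (41.8% of features with as many reads) and below 1 for 8 (9.66%).

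**Figure D2:**
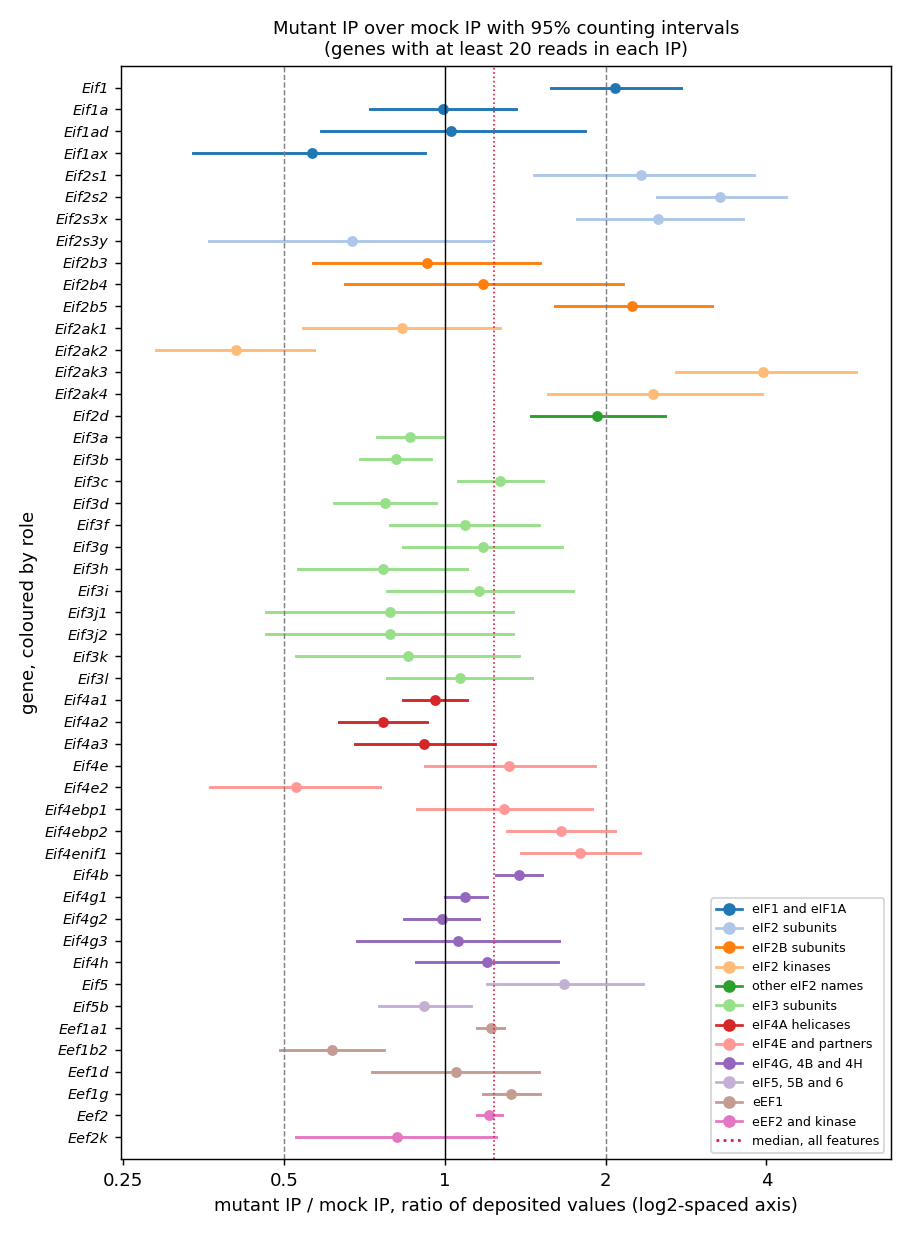
Ratio of the deposited values in the mutant IP to those in the mock IP for the 49 translation factor genes with at least 20 reads in each IP, on a log2-spaced axis, with exact 95% counting intervals as bars and colours for the roles. Dashed lines mark a 2-fold difference and the dotted line the median of all features with as many reads; Eif2s1, Eif2s2, Eif2s3x, Eif2b5, Eif2ak3, Eif2ak4 and Eif1 lie right of 2-fold and the eIF3 subunits lie between 0.767 and 1.27.

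The eIF2 heterotrimer, which carries the initiator tRNA, has the subunits alpha (Eif2s1), beta (Eif2s2) and gamma (Eif2s3x, with the Y-linked copy Eif2s3y). Eif2s2 had 8.33 and 9.2 in the inputs and 89.3 and 27.2 in the IPs. The mutant IP was the highest of the 4 libraries for this gene, at 3.28 times the mock IP (95% interval 2.5 to 4.36), while the inputs lay close together. Eif2s3x had 2.22 and 0.4 in the inputs and 45.2 and 18 in the IPs, a ratio of 2.51 (1.77 to 3.62). Eif2s1 had 0 and 0.400 in the inputs and 25.2 and 10.8 in the IPs, a ratio of 2.33 (1.47 to 3.79). For Eif2s3y the order was the other way, with 7.78 and 11.6 in the IPs and 0 in both inputs, and its ratio of 0.67 had an interval of 0.363 to 1.22, which holds 1. So 3 of the 4 eIF2 subunit genes were at least 2-fold higher in the mutant IP and 0 lower. Among all features with at least 20 reads in each IP, 12.5% were higher and 2.5% lower. After centring, 1 of 4 was at least 2-fold higher, against 4.35% of such features. Direction was examined under 5 settings: as deposited, a pseudocount of 5, centred libraries, equal totals, and equal totals without Lars2. In each of them 3 of the 4 ratios were above 1 and 1 below. As deposited, 4572 of 6524 features with at least 20 reads in each IP were above 1. A pseudocount keeps the sign and a scaling shifts all features nearly alike, so these settings could hardly change the directions. The reads of the 4 genes together were 2.48 times higher in the mutant IP (2.07 to 2.97). By summed reads the fibroblast markers were at 3.40 times (2.20 to 5.41) and the stem cell markers at 1.39 (1.32 to 1.46). Mesoderm markers were at 1.39 (0.763 to 2.58), ectoderm markers at 1.04 (0.773 to 1.41) and endoderm markers at 0.712 (0.377 to 1.33). The part of any cell type in the difference of the eIF2 genes was not tested.

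The eIF2B subunits, which form the exchange factor of eIF2, did not share 1 direction. Eif2b5, the catalytic epsilon subunit, had 8.33 and 5.6 in the inputs and 46.7 and 20.8 in the IPs, a ratio between the IPs of 2.24 (1.61 to 3.16). Eif2b1, the alpha subunit, had 0 and 0.4 in the inputs and 11.5 and 1.6 in the IPs; it was 1 of the 2 genes past 4-fold, at 7.18, but with 31 and 4 IP reads its interval ran from 2.54 to 28. The beta subunit Eif2b2 had 0 and 6 reads in the IPs, and the interval of its ratio ran from 0 to 0.786. The gamma subunit Eif2b3 and the delta subunit Eif2b4 had ratios of 0.926 (0.567 to 1.51) and 1.18 (0.650 to 2.16), within their counting error of 1.

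Among the eIF2 kinases, both ends of the range were found. Eif2ak3 (PERK, which senses stress in the endoplasmic reticulum) had 0 and 0.4 in the inputs and 55.2 and 14 in the IPs, a ratio of 3.94 (2.71 to 5.87), the highest among genes with at least 20 reads in each IP. Eif2ak4 (GCN2, which senses uncharged tRNA) had 1.11 and 0 in the inputs and 27.4 and 11.2 in the IPs, a ratio of 2.45 (1.56 to 3.93). Eif2ak2 (PKR, which senses double-stranded RNA) had 3.89 and 0 in the inputs and 19.3 and 47.2 in the IPs, a ratio of 0.408 (0.289 to 0.570), the lowest of the 49. Eif2ak1 (HRI, the haem-regulated kinase) had 16.7 and 20 in the IPs, a ratio of 0.833 (0.544 to 1.27). Of the remaining genes named for eIF2, Eif2d, an alternative tRNA-binding initiation factor, had 57.0 and 29.6 in the IPs, a ratio of 1.93 (1.45 to 2.58), and Eif2a had 19 and 8 reads, a ratio whose interval of 0.919 to 5.81 holds 1.

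The eIF3 subunits, which form the scaffold on the small ribosomal subunit, varied little between the IPs. Eif3a had 77.2 and 58 in the inputs and 141 and 164 in the IPs. Eif3b had 18.3 and 32.8, then 120 and 148, and Eif3c, like them a core subunit, 8.89 and 5.2, then 107 and 84. Their ratios between the IPs were 0.860 (0.746 to 0.992), 0.811 (0.696 to 0.944) and 1.27 (1.06 to 1.53), so that Eif3c lay on the other side of 1 from Eif3a and Eif3b. The 12 eIF3 genes with at least 20 reads in each IP, Eif3j1 and Eif3j2 included, spanned log2 ratios of -0.37 to 0.35 with a median of -0.21. As deposited 5 were above 0 and 7 below, while 4572 of 6524 features with as many reads were above 0. After centring all 12 were below 0, the nearest at -0.02. Centring put 35 of the 49 translation factor genes below 0, these 12 included. None of these 12 passed 2-fold in either direction under the same 5 settings. As deposited, 12.5% of all features with as many reads were at least 2-fold higher and 2.5% lower. Eif3d, a cap-contacting subunit, had a ratio of 0.774 (0.620 to 0.965), and Eif3h, with 21.5 and 28.0, one of 0.767 (0.532 to 1.10). Eif3f, Eif3g, Eif3i, Eif3k and Eif3l had ratios between 0.855 and 1.18, and each interval held 1. Eif3m, with 17 and 25 reads, had 0.630 (0.319 to 1.21). Eif3e was the exception with few reads: it had 13 and 0 reads in the IPs, and the interval of its ratio began at 2.82. It is the other gene past 4-fold, at 2.54 on the log2 scale with the pseudocount, a value that is no bound.

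The eIF4A helicases lay near 1. Eif4a1, the main helicase of the cap complex, had 14.4 and 4.80 in the inputs and 154 and 160 in the IPs, a ratio of 0.961 (0.835 to 1.10). Eif4a2, its close paralog, had 8.89 and 3.6 in the inputs and 77.0 and 100 in the IPs, a ratio of 0.767 (0.635 to 0.926). Eif4a3, which belongs to the exon junction complex, gave 0.916 (0.679 to 1.24). All 3 ratios were under 1 as deposited, though only for Eif4a2 did the counting interval leave out 1. Of 6524 features with at least 20 reads in each IP, 4572 were above 1 as deposited. They stayed under 1 for the 3 helicases under the other settings, but a pseudocount keeps the sign and each other scaling lowered the ratios. Those settings could therefore not bring them above 1.

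The cap-binding proteins and their partners differed from each other. Eif4e, the main cap-binding protein, had 28.5 and 21.6 in the IPs, a ratio of 1.32 (0.920 to 1.91). Eif4e2 (4EHP, a translational repressor) had 13.9 and 9.2 in the inputs and 18.1 and 34.4 in the IPs, a ratio of 0.528 (0.364 to 0.758). Eif4e3, a divergent relative of Eif4e, had 16.1 and 9.2 in the inputs and 17 and 4 in the IPs. For Eif4e3 the mock IP was the lowest library, with 10 reads, and the ratio between the IPs was 4.26 (2.12 to 9.47), which with the pseudocount gives 1.85 on the log2 scale, just short of the 4-fold threshold. The eIF4E repressors Eif4ebp1 and Eif4ebp2 had ratios of 1.29 (0.887 to 1.89) and 1.65 (1.31 to 2.08), and Eif4enif1, which shuttles eIF4E to the nucleus, had 1.79 (1.39 to 2.32). Eif4ebp3 had 0 reads in every library. Of the scaffold and helicase helpers, Eif4g1 had 47.8 and 46.8 in the inputs and 399 and 364 in the IPs, and Eif4b 18.3 and 22.4, then 397 and 288. Their ratios between the IPs were 1.09 (1 to 1.2) and 1.38 (1.25 to 1.52). Eif4g2, which lacks the part of eIF4G that binds eIF4E, Eif4g3, a close paralog of Eif4g1, and Eif4h, a relative of Eif4b in function, gave 0.987, 1.06 and 1.20, with intervals that held 1.

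Among the remaining initiation factors, Eif1, which guards start codon choice, had 5 and 2 in the inputs and 63.3 and 30.4 in the IPs, a ratio of 2.08 (1.58 to 2.77). Eif1ax, an eIF1A gene, was at the low end with 10.4 and 18.4 and a ratio of 0.564 (0.339 to 0.921), whereas its paralog Eif1a had 0.995 (0.726 to 1.36) and the related Eif1ad 1.03 (0.587 to 1.83). Eif5, the GTPase activator of eIF2, gave 1.67 (1.20 to 2.35), Eif5b, which joins the subunits, 0.917 (0.753 to 1.12) and Eif6, which keeps them apart, 1.19 (0.559 to 2.59). Eif5a, whose protein carries hypusine and is among the abundant proteins of most cells, had 3 mutant IP reads and 0 in the 3 other libraries. Its paralog Eif5a2 had 9 and 4 reads in the IPs. Neither allows a ratio to be read.

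Eef1a1 and Eef2 sat close to the median of all features. Eef1a1 and Eef2 gave ratios of 1.22 (1.15 to 1.29) and 1.21 (1.15 to 1.28), and Eef1g 1.33 (1.18 to 1.51). These ratios lay above 1 beyond counting error as deposited. After centring, the 4 eEF1 genes with at least 20 reads in each IP had a median of -0.19 on the log2 scale. Then 1 of these 4 was above 0, and 14 of all 49 translation factor genes with as many reads. Eef1b2, the exchange factor subunit that recharges eEF1A, went the other way from Eef1g: it had 21.7 and 6 in the inputs and 50.4 and 81.6 in the IPs, a ratio of 0.617 (0.493 to 0.771). Eef1d, a second exchange subunit, gave 1.05 (0.732 to 1.5), and Eef1e1, an aminoacyl-tRNA synthetase complex protein, 0.381 (0.134 to 0.967) on 7 and 17 reads. Eef1a2, the muscle and neuron form of eEF1A, had 0 and 4 reads in the IPs, and the interval of its ratio, 0 to 1.4, holds 1. Eef2k, the kinase that inhibits eEF2, gave 0.813 (0.527 to 1.25).

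Paralogs of the same factor were thus often far apart in reads: Eef1a1 had 2924 reads in the mutant IP where Eef1a2 had 0, Eif1 had 171 where Eif1b had 2, and Eif2s3x had 122 where Eif2s3y had 21. Eif4a1 and Eif4a2, with 416 and 208, and Eif1a and Eif1ax, with 87 and 28, were closer.

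Recovery relative to input was then compared in the mutant and in the mock; the IP RNA differs from the input also in how it was prepared. In the mutant, 41 of 59 translation factor genes were at least 4-fold higher in the IP than in the input (61.1% of all features) and 1 was lower (2.32%). In the mock, 42 of 59 were higher (60.6%) and 1 lower (1.92%). The median log2 ratios were 2.95 and 2.93, against 2.44 and 2.32 over all features. Scaling to equal totals changed these splits to 13 higher and 2 lower for the mutant (26.4% and 9.02% of all features), and 13 and 3 for the mock (19.7% and 10.6%). The level of the ratio thus depends on the scaling, whereas a change of scaling leaves the order of ratios taken without a pseudocount as it is. Among genes with at least 10 reads in both libraries, 14 of 25 (46.5% of all such features) passed 4-fold in the mutant and 12 of 20 (47.4%) in the mock.

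Among these genes with at least 10 reads in both, the top of the mutant order held Eif4b, at 21.7 times input (15.3 to 31.6), Eef1a1 at 14.9 (12.5 to 17.9), Eef2 at 12.5 (10.6 to 14.7) and Eif3c at 12.0 (7.29 to 21.4). In the mock the highest were Eif4a1 at 33.4 (18.9 to 65.2), Eif3c at 16.2 (9.24 to 30.8), Eef1b2 at 13.6 (8.05 to 24.7), Eef1a1 at 13.1 (11.2 to 15.5) and Eif4b at 12.9 (9.79 to 17.2). Eif3c, Eef1a1 and Eif4b were near the top in both conditions. The low end in the mutant held Eif4e3 at 1.06 (0.650 to 1.75), Eif4e2 at 1.31 (0.792 to 2.21), Eif3a at 1.83 (1.5 to 2.24) and Eef1b2 at 2.32 (1.62 to 3.41). In the mock it held Eif4e3 at 0.435 (0.185 to 0.95), Eif5b at 2.34 (1.81 to 3.03), Eif4ebp1 at 2.43 (1.44 to 4.25), Eif3a at 2.83 (2.33 to 3.44) and Eif2s2 at 2.96 (1.82 to 4.97). The core eIF3 subunits Eif3a and Eif3c thus differed from each other in both conditions, at 1.83 and 2.83 against 12.0 and 16.2 times input, and their intervals did not overlap.

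**Figure D3:**
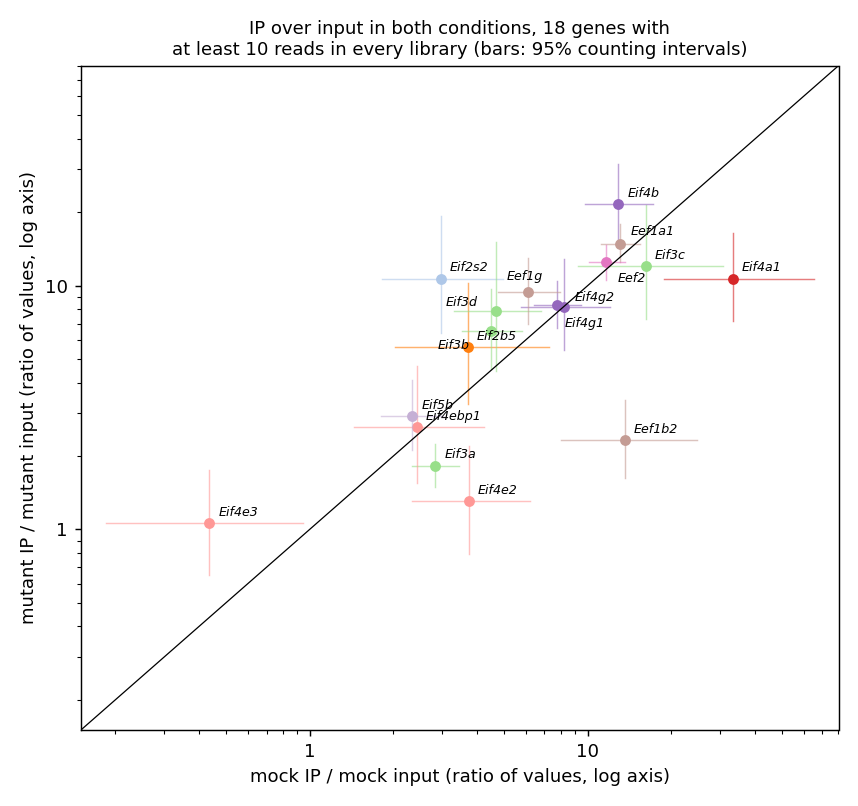
IP over input in the mutant (vertical) against IP over input in the mock (horizontal) for the 18 translation factor genes with at least 10 reads in every library, both on log axes, with exact 95% counting intervals as bars; the line marks equal ratios. Eef1b2, Eif4a1, Eif4e2 and Eif3a lie below the line and Eif2s2 and Eif4e3 above it.

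Eif4e1b, the germline form of eIF4E, was the 1 gene at least 4-fold lower in the IPs with the scaling as deposited. It had 10 and 10.8 in the inputs, from 18 and 27 reads, but 1 and 0 reads in the IPs. In the mutant that is 0.037 of the input value (0.000889 to 0.235), and in the mock the interval of the ratio ran from 0 to 0.146. As deposited, every other of the 59 genes measured in the mutant had a log2 ratio above 0, Eif4e3 at 0.08 among them. Of all features 12151 of 13637 were above 0. In the mock 55 of 59 genes were above 0, against 11749 of 13111 features. These counts depend on the scaling: with equal totals 2 genes in the mutant and 3 in the mock were at least 4-fold lower.

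Between the inputs, mutant over mock, 6 of 54 translation factor genes were at least 4-fold higher (10% of all features) and 0 were lower (4.74%), with a median of 0.20 against 0.51 over all features (0.01 with equal totals). All 6 rested on few mock reads: Eif4h had 12 reads against 0, Eif3i 10 against 0, Eif4enif1 9 against 0, Eif2ak2 7 against 0, Eif4a3 19 against 3 and Eif3h 9 against 1. For the first 4 of these the interval of the ratio began at 3.86, 3.11, 2.74 and 2, and Eif4a3 had a ratio of 8.80 (2.59 to 46.4). With at least 10 reads in both inputs, 0 of 19 genes passed 4-fold in either direction (1.47% of such features were higher and 0% lower), and at 2-fold 2 were higher (18%) and 1 lower (1.84%). The highest were Eef1b2 at 3.61 (1.95 to 7.05), Eif4a1 at 3.01 (1.47 to 6.55), Eif4e3 at 1.75 (0.978 to 3.17) and Eif3c at 1.71 (0.771 to 3.86). The lowest were Eif3d at 0.463 (0.227 to 0.886), Eif3b at 0.559 (0.361 to 0.847), Eif5b at 0.733 (0.504 to 1.06) and Eif4b at 0.818 (0.516 to 1.28). All 3 eIF4A helicases were higher in the mutant input, with 2.47 (1.03 to 6.34) for Eif4a2, and their summed reads of 61 and 24 gave a ratio of 3.53 (2.17 to 5.92). Their log2 ratios stayed above 0 with equal totals, at 0.92 for Eif4a1, 0.64 for Eif4a2 and 1.99 for Eif4a3. Eef2, Eef1a1 and Eif4g1, the genes with the highest mean over the 4 libraries, gave 1.13, 1.08 and 1.02 with intervals that held 1. Eif3a, with 139 and 145 input reads against 86 and 117 for Eif4g1, gave 1.33 (1.05 to 1.69).

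The specific IP enrichment divides IP over input in the mutant by the same ratio in the mock. It was at least 4-fold higher for 3 of 61 translation factor genes (13.8% of all features) and lower for 7 (10.6%), with a median of 0.10 against 0.13. After centring the split was 8 and 8 (12.6% and 12.8% of all features), and with equal totals 14 and 8 (15.3% and 11.8%), so neither direction prevailed under every scaling. The 3 higher genes all belong to the names around eIF2, with log2 values of 2.75 for Eif2b1, 2.52 for Eif2a and 2.39 for Eif2ak3, and each had 0 reads in the mutant input. The 7 lower genes were Eif2ak2 at -3.54, Eif4h at -2.68, Eif4a3 at -2.52, Eif3i at -2.51, Eif3h at -2.47, Eef1b2 at -2.38 and Eef1e1 at -2.20. All but Eef1b2 had 0 to 3 reads in the mock input, so that these values turn on a few input reads and on the pseudocount, and are no bounds.

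Among the 18 genes with at least 10 reads in every library, 0 passed 4-fold upwards (1.04% of such features) and 1, Eef1b2, downwards (2.09%). The ratio of ratios was 0.171 for Eef1b2 (0.0844 to 0.333), 0.319 for Eif4a1 (0.145 to 0.666), 0.349 for Eif4e2 (0.170 to 0.719) and 0.646 for Eif3a (0.488 to 0.856). For Eef1b2 and Eif4a1 the low value came largely from the input, which was more than 3-fold higher in the mutant, while Eif4a1 had nearly equal values in the IPs. At the upper end were Eif2s2 at 3.62 (1.69 to 7.87), Eif4e3 at 2.43 (0.939 to 6.53), Eif4b at 1.68 (1.06 to 2.7) and Eif3d at 1.67 (0.835 to 3.54). For Eif2s2 the inputs were alike, at 0.906 (0.440 to 1.81), so that its value came from the IPs. Eef1a1, Eef2, Eif4g1 and Eif4g2 gave 1.13, 1.07, 1.07 and 0.995, and each interval held 1.

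Some of these genes hold the gene of a noncoding RNA within their span by the RefSeq gene table of GRCm38, which was used for names and nesting only. In 4 of them that RNA had at least 20 reads over the 4 libraries of the noncoding table. Eif4a2 holds Snora81, an H/ACA box snoRNA, which had 53.9 and 32.8 in the inputs and 5.56 and 3.6 in the IPs. Host and snoRNA went opposite ways: the IP value of Snora81 was 0.103 of input in the mutant (0.0556 to 0.179) and 0.11 in the mock (0.0485 to 0.219), whereas that of Eif4a2 was 8.67 and 27.9 times input. Eif2ak3 holds Gm23346, a snoRNA gene, with 56 and 127 reads in the inputs and 0 in both IPs, while Eif2ak3 had 0 and 1 reads in the inputs and 149 and 35 in the IPs. Eef2k holds the long noncoding RNA Gm15774, which had 158 and 102 in the inputs and 94.8 and 67.6 in the IPs and so was below its input in both conditions, at 0.601 and 0.663 times. Gm25835, a snoRNA gene within Eif4a1, differed from the others, with 0 reads in the inputs and 19 and 22 in the IPs. No source used here gives the use of strand in counting, so reads of a gene and of an overlapping RNA cannot be told apart where they share sequence.

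**Figure D4:**
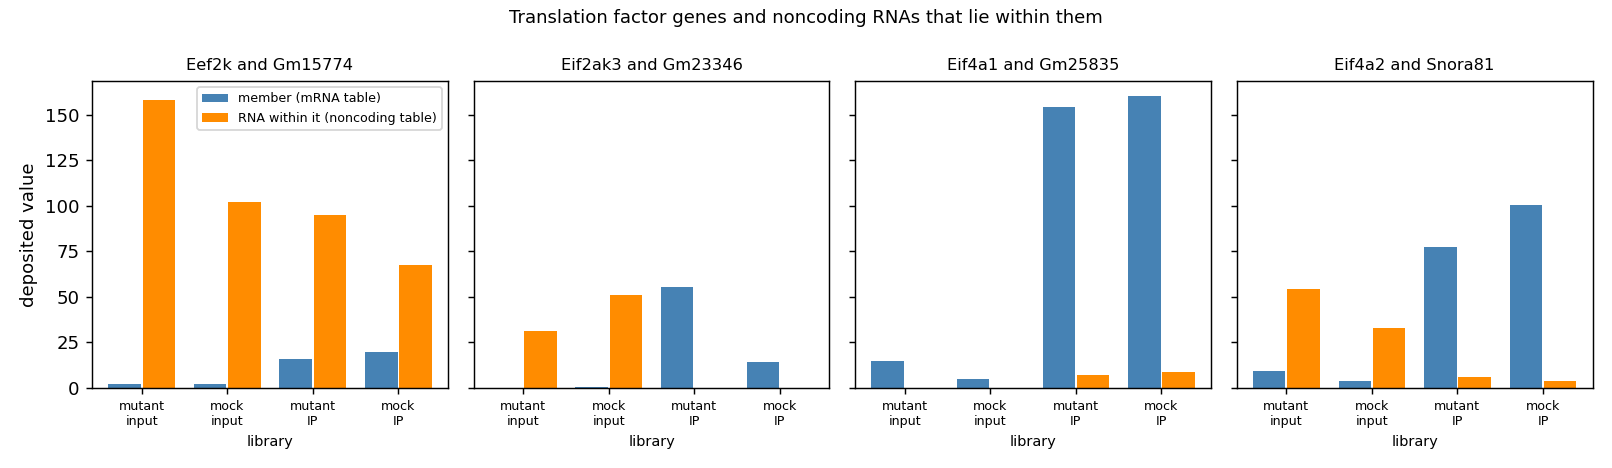
Deposited values in the 4 libraries for 4 translation factor genes (blue) and the noncoding RNAs that lie within them (orange), on a linear axis from 0; the values are not divided by length, so bars compare libraries and not RNAs. Snora81 and Gm23346 are high in the inputs and low or at 0 in the IPs, the reverse of Eif4a2 and Eif2ak3.

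Other genes of the pathway were compared between the IPs in the same way, with the scaling as deposited. Of all 14273 features, 9282 were above 0 on the log2 scale, 28.8% were at least 2-fold higher and 15% lower. The counts of these short lists are to be read beside those shares. All 5 genes of poly(A) binding were above 0 on the log2 scale, and 2 were at least 2-fold higher and 0 lower; Pabpc1, the poly(A)-binding protein that bridges to eIF4G, had a ratio of 1.29 (1.21 to 1.39) and Pabpc4 1.77 (1.55 to 2.03). Of 8 measured genes of termination and recycling, 0 were at least 2-fold higher and 1 lower, Mcts2, at 0.194 (0.0831 to 0.403). Among 18 regulators and helicases 2 were higher and 2 lower at 2-fold, with Ddit3, a stress transcription factor made downstream of the eIF2 kinases, at 5.45 (2.67 to 12.6) and Atf4, which acts above it, at 0.774 (0.533 to 1.12). Dohh, which completes the hypusine of eIF5A, was at 0.130 (0.0535 to 0.274). Of 9 mitochondrial translation factors 3 were higher and 0 lower, with Gfm1, a mitochondrial elongation factor, at 4.35 (2.75 to 7.15). The list of 90 ribosomal protein symbols had a median of 0.43, with 12 at least 2-fold higher and 7 lower; without the pseudogenes in it and Rps19bp1, which is no ribosomal protein, 84 genes had a median of 0.45, with 11 higher and 2 lower. They lay close to the median of all features, 0.38, and the translation factor genes, at 0.12, differed from it by -0.26. That difference was -0.27 with equal totals and -0.28 after centring. Scaling shifts all features nearly alike, so these settings could hardly change it. The difference was -0.18 with a pseudocount of 5 and -0.10 with no filter on low values, and no replicate spread stands behind it.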

How the data were processed

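The submitters' processing notes name Bowtie and the mouse build mm9; version, counting tool, strand and the handling of multiple alignments were not given there. The deposited unit is a signal, with 1 column per library: 100% of values were whole reads, within 0.02, divided by a factor of unstated meaning: 1.8 and 2.5 for the inputs, 2.7 and 2.5 for the IPs, mutant before mock. Of the 16470 symbols, 26 had been turned into dates and were restored through RefSeq accessions.

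Log2 ratios used a pseudocount of 1 on features with at least 1 in any library of the ratio. Ratios in the text are of deposited values without a pseudocount, with exact conditional binomial 95% intervals from recovered reads (for the specific enrichment, the exact conditional odds ratio; scipy 1.17.1). The intervals of ratios were run on simulated binomial counts, where exact intervals hold by construction. The simulation had no PCR copies and no variation between libraries, and it left out the odds ratio interval. Against a library at 0 reads, only the closed end of the interval is given. No test was made with 1 library per group.

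Named were genes with the highest mean, those past 4-fold between the IPs or in the specific enrichment, and the highest and lowest of each ratio among genes with at least 10 reads (20 between the IPs) in every library used, and others to cover each role and paralog pair. The members and lists were chosen with earlier results of these data known. All 63 symbols were found in the RefSeq table of GRCm38.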

Additional observations from a re-analysis of the deposited data

Results flagged for a closer look

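Eif4e3 drew attention because its IP over input, as deposited, went opposite ways in the 2 conditions. It was 1.06 times input in the mutant (0.650 to 1.75) and 0.435 times in the mock (0.185 to 0.95). The opposite directions are tied to the deposited scaling. With equal totals the median log2 ratio of the translation factor genes fell from 2.95 to 0.92 in the mutant and from 2.93 to 0.53 in the mock. On the log2 scale the specific enrichment came to 1.10. The mutant ratio lay within counting error of 1, the mock IP held 10 reads, and the difference was not tested.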

How the results depend on the processing

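The counts of translation factor genes at 4-fold and their medians were recomputed under 10 alternatives; 3 of these, the totals without Lars2, the minimum of 20 reads in each library and the list without Eif3j2, were chosen after seeing the data. Of the resulting values, 99 stayed within 1.5 times the count or within the interval of the median, and 51 moved. Some of the 99 could not move. Use of every listed transcript repeats the main setting, since each gene has 1 transcript, and a call at 2-fold leaves the medians as they are. Counts in parentheses are those of all features. With a pseudocount of 5, 0 genes were higher between the IPs (90 of 14273) and between the inputs (7 of 9367). In IP over input of the mutant 24 were higher and 0 lower (3853 and 86 of 13637), with a median of 1.72 against 1.31 over all features. The mock had 25 and 0 (3105 and 79 of 13111), with 1.92 against 1.19. The specific enrichment had 0 and 0 (206 and 84 of 15060). With libraries centred on the median, 1 was higher between the IPs (1088), with a median of -0.24. In the mutant IP over input 16 were higher (3896), with a median of 1.09. The mock had 16 higher and 2 lower (3456 and 964), with 1.07, and the specific enrichment 8 higher (1894). With equal totals, 13 were higher and 2 lower in the mutant (3599 and 1230), with a median of 0.92. The mock had 13 and 3 (2589 and 1385), with 0.53. The median between the inputs was -0.27, and 14 were higher in the specific enrichment (2301). Without Lars2 in the totals, 1 was higher between the IPs (1073), with a median of -0.26, and 17 in the mutant (4330), with 1.38. The mock had 16 higher and 2 lower (3483 and 956), with 1.09. The median between the inputs was -0.30, and 8 were higher in the specific enrichment (2001). With a minimum value of 5, 1 of 55 was higher between the IPs (968 of 10859). Called at 2-fold, 11 were higher and 4 lower between the IPs (4117 and 2147), and 2 lower in the mock IP over input (874). Between the inputs 18 were higher and 12 lower (3463 and 2038), and in the specific enrichment 16 and 14 (4747 and 4000). With at least 20 reads in each library, 0 of 49 were higher between the IPs (34 of 6524) and 0 of 11 between the inputs (6 of 1019). In each IP over input 8 of 13 were higher and 0 lower (503 and 24 of 1267 in the mutant, 547 and 18 of 1243 in the mock). The specific enrichment had 0 and 0 of 10 (4 and 15 of 859). Equal totals also turned the mock IP over input of Eef1g to -0.06, Eif1ax to -0.29, Eif3b to -0.49 and Eif3d to -0.43 on the log2 scale. Beyond each setting's own construction, the cause of these moves was not tested. No paired analysis was possible because each group holds 1 library. The inputs limit the depth: 18 of 63 genes had at least 10 reads in every library.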
